A study of Gallus gallus with 21 samples.

Results

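Gene expression was compared between 3 male and 4 female hearts of chicken embryos at 18 days of incubation. These 7 arrays are all of the heart arrays among the 21 arrays held for the series, which also covers brain and left gonad, and they were chosen by the tissue and sex in the sample labels. The embryos came from fertilized White Leghorn eggs, and the labels give no treatment or genetic change in either sex. The male hearts were those of embryos 16, 19 and 21 and the female hearts those of embryos 2, 10, 12 and 20; the heart of the fourth male embryo was not analysed here. Each array held RNA from 1 embryo, taken from a piece of the apical end of the heart, so the atria and the outflow tract were not sampled as such. RNA was hybridized to the Affymetrix Chicken Genome Array, which reads each transcript with a set of short probes called a probe set. Values are log2 signal intensities, on which a step of 1 is a doubling, and per-array values are given below in the order male 16, 19, 21 and female 2, 10, 12, 20.

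Birds have ZZ males and ZW females. A male therefore carries 2 copies of each Z-linked gene and a female 1 copy, whereas autosomal genes have the same copy number in both sexes. The W chromosome is passed from mother to daughter, and its few surviving genes are mostly partners of genes still present on Z. The heart of the late embryo is a beating, oxygen-demanding muscle in which sarcomere proteins, calcium pumps and mitochondrial enzymes are among the most abundant products. Several of the enzymes that burn fat, sense energy charge or repair DNA are encoded on the chicken Z chromosome. Most genes of these functions lie on autosomes, as do most genes of the contractile apparatus.

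Of 15282 probe sets with heart values, 555 were placed on Z, 12011 on autosomes and 23 on W, and 2693 had no place in the gene table used. The 7 arrays were alike, with correlations across probe sets of 0.968 to 0.979 within a sex and 0.951 to 0.973 between sexes. These 2 ranges overlapped. The label was checked against markers of heart cells. All 9 cardiomyocyte markers, such as the troponin gene TNNT2 and the actin gene ACTC1, had heart values, and their mean level was 13.05 to 13.09 in male arrays and 13.11 to 13.17 in female arrays. The female arrays thus all lay slightly above the male ones, although limma called none of the 9 and none had an unadjusted p under 0.05. None of 11 skeletal muscle markers had a heart value. In a bulk sample, fewer cells of a type and less RNA per cell cannot be told apart, which holds for every gene below.

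The sex difference in embryonic heart lay mainly on the Z chromosome, where most genes had more RNA in males, and on the W chromosome, where 11 genes had more RNA in females. Most autosomal genes lay within 1.2-fold. A probe set was called male-biased or female-biased when its fold-change exceeded 1.5 and its adjusted p was under 0.05 in the limma fit. Under that rule 265 probe sets were sex-biased, which is 1.73% of those tested, with 205 male-biased (1.34%) and 60 female-biased (0.393%). Of the 205 male-biased probe sets, 163 were Z-linked, 15 autosomal, 2 placed on W and 25 without a place. Of the 60 female-biased ones, 3 were Z-linked, 19 autosomal, 17 W-linked and 21 without a place.

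Counted by gene, with 1 probe set for each, 122 of 387 Z-linked genes were male-biased (31.5%) and 2 were female-biased. The same rule called 9 of 7582 autosomal genes male-biased and 8 female-biased. The median log2 difference, male minus female, was 0.59 over Z-linked genes, a fold-change of 1.5, against 0.03 over autosomal genes. The distribution was wide, with an interquartile range of 0.26 to 0.87. A fold-change over 2 in males was measured for 58 Z-linked genes (14.99%), one of 1.5 to 2 for 136 (35.1%), one of 1.2 to 1.5 for 96 (24.8%), and one within 1.2 in either direction for 74 (19.1%). The other 23 Z-linked genes had higher values in females, 14 by 1.2 to 1.5-fold and 9 by more than 1.5-fold. Among autosomal genes 76.5% lay within 1.2.

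Every male array stood above every female array in its Z-linked level. The median of Z-linked probe sets minus the median of autosomal probe sets on the same array was 0.22, 0.23 and 0.35 in the males and -0.40, -0.24, -0.38 and -0.34 in the females. Means were 0.27 ± 0.07 in males (SD, n = 3) and -0.34 ± 0.07 in females (SD, n = 4). The exact two-sided permutation test gave p = 0.0571, the smallest that 3 against 4 arrays allow. Male and female values of single genes separated less often: all male arrays exceeded all female arrays for 225 Z-linked genes (58.1%), and the reverse held for 5, whereas over all probe sets the arrays of the sexes did not overlap for 9.61%, with males above for 6.11% and females above for 3.5%. No autosome came near the Z chromosome, since the medians of the 28 autosomes with at least 20 genes ran from -0.02 to 0.05. The count of male-biased Z-linked probe sets was 105 without male 19 and 79 when the heart arrays were fitted alone. Their median difference was 0.54 without male 19, against 0.55 with all arrays, taken over all Z-linked probe sets. Fitting the heart arrays alone cannot change the median, since each difference is that of the same heart means.

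**Figure D1:**
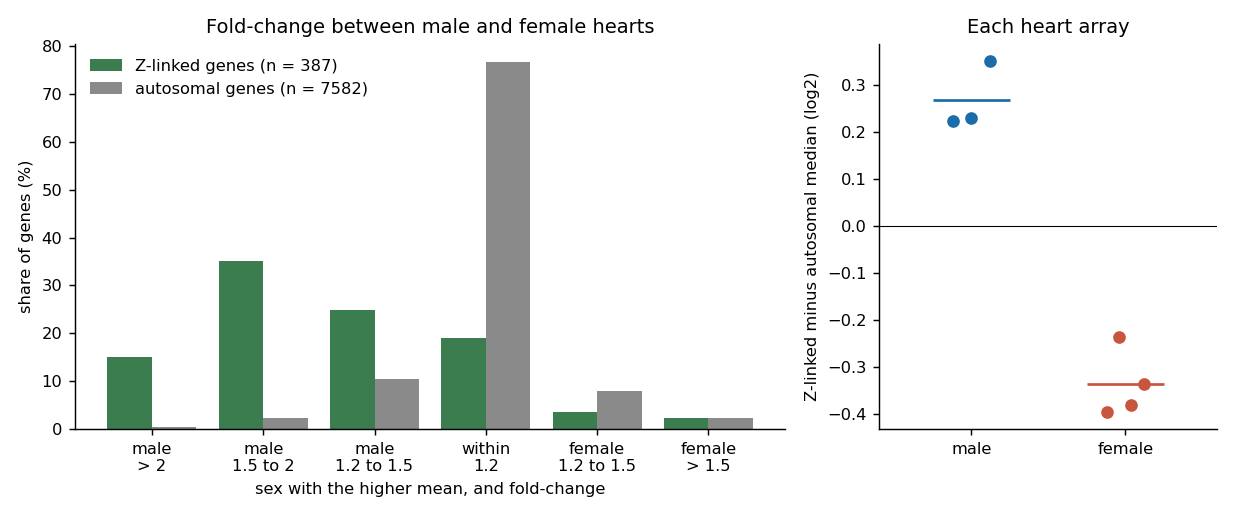
Left, bars give the share in percent of Z-linked and autosomal genes in each class of fold-change between male and female hearts. Right, points give for each of the 3 male and 4 female arrays the median of Z-linked probe sets minus that of autosomal probe sets in log2 units. The Z-linked genes centre on male excess while 76.5% of autosomal genes lie within 1.2-fold, and the 3 male arrays (0.22 to 0.35) sit above the 4 female arrays (-0.40 to -0.24).

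Among Z-linked genes called by their probe set of highest level, those with the largest male excess reached about 3-fold and came from several unrelated functions. PRKAA1, which encodes a catalytic subunit of the energy sensor AMP-activated protein kinase, had values of 5.52, 5.86 and 6.05 in males, against 4.04, 3.95, 4.60 and 4.18 in females. The lowest male lay well above the highest female, and the difference was 1.61 (SE 0.19, 3.06-fold, adjusted p = 6.77e-05). RAD1, a subunit of the ring-shaped clamp loaded at damaged DNA, had 8.41, 8.65 and 8.53 in males, against 6.47, 7.49, 7.02 and 6.88 in females (difference 1.57, SE 0.20, adjusted p = 0.000115). Again no female array reached the male range. WDR70, a WD-repeat protein, had 8.11, 8.01 and 7.95 in males and 6.15, 6.75, 6.53 and 6.28 in females, a difference of 1.6 (SE 0.18, adjusted p = 3.34e-05).

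YTHDC2, an RNA helicase that binds methylated RNA, gave 9.18, 9.995 and 10.32 in males, against 7.39, 8.36, 8.86 and 8.35 in females. The highest female came close to the lowest male, and the difference of 1.59 had a larger SE of 0.34 (adjusted p = 0.015). ERAP1, the aminopeptidase that trims antigenic peptides in the endoplasmic reticulum, had 7.59, 7.48 and 7.84 in males and 6.44, 6.82, 5.52 and 5.62 in females (difference 1.54, adjusted p = 0.00399). NMRK1, which phosphorylates nicotinamide riboside on the way to NAD, had 7.83, 8.10 and 7.82 in males and 6.47, 6.87, 6.62 and 5.6 in females (difference 1.53, adjusted p = 0.000844). For both genes the spread was wider among females than among males. The remaining genes of this group were TTC33 at 1.53, the lysosomal sulfatase gene ARSK at 1.47, the stress-response gene GADD45G at 1.47, C9orf64 at 1.43, the mismatch repair gene MSH3 at 1.37 and TPGS2, a subunit of the tubulin polyglutamylase complex, at 1.36. All 12 genes were male-biased with arrays that did not overlap, in the probe set of highest level. YTHDC2 was read by 3 probe sets with differences of 0.29 to 1.59, of which 1 was called. The other probe set of ERAP1, at 0.97, and that of GADD45G, at 0.81, were not called. The YTHDC2 call was lost without male 19 (adjusted p = 0.0845) or male 21 (0.104), the ARSK call without male 19 (0.0576) or male 21 (0.0553) and the TTC33 call without male 19 (0.0582). With the heart arrays fitted alone these 3 genes lost their calls, and so did ERAP1 (0.126), NMRK1 (0.0793), GADD45G (0.167) and MSH3 (0.144).

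Smaller differences with little spread among the males were called as well. TOMM5, a subunit of the pore through which proteins enter mitochondria, had a smaller difference of 1.01 and an adjusted p of 4.31e-06, the lowest of any male-biased Z-linked gene, with 11.49, 11.63 and 11.55 in males against 10.48, 10.42, 10.61 and 10.66 in females. The centrosomal gene CETN3 was even in males, at 9.92, 9.92 and 9.93, and less so in females, at 8.38, 8.68, 8.58 and 8.91. Its difference was 1.29 (adjusted p = 6.78e-06). C7, a component of the complement membrane attack complex, was read by 2 probe sets. The one of highest level had 8.89, 8.88 and 8.64 in males and 6.19, 7.5, 7.38 and 7.31 in females, and with a difference of 1.71 and an SE of 0.55 it was not called (adjusted p = 0.21). The weaker C7 probe set was male-biased, with 6.04, 5.84 and 5.5 in males against 3.44, 3.62, 3.94 and 3.47 in females (adjusted p = 0.0103).

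**Figure D2:**
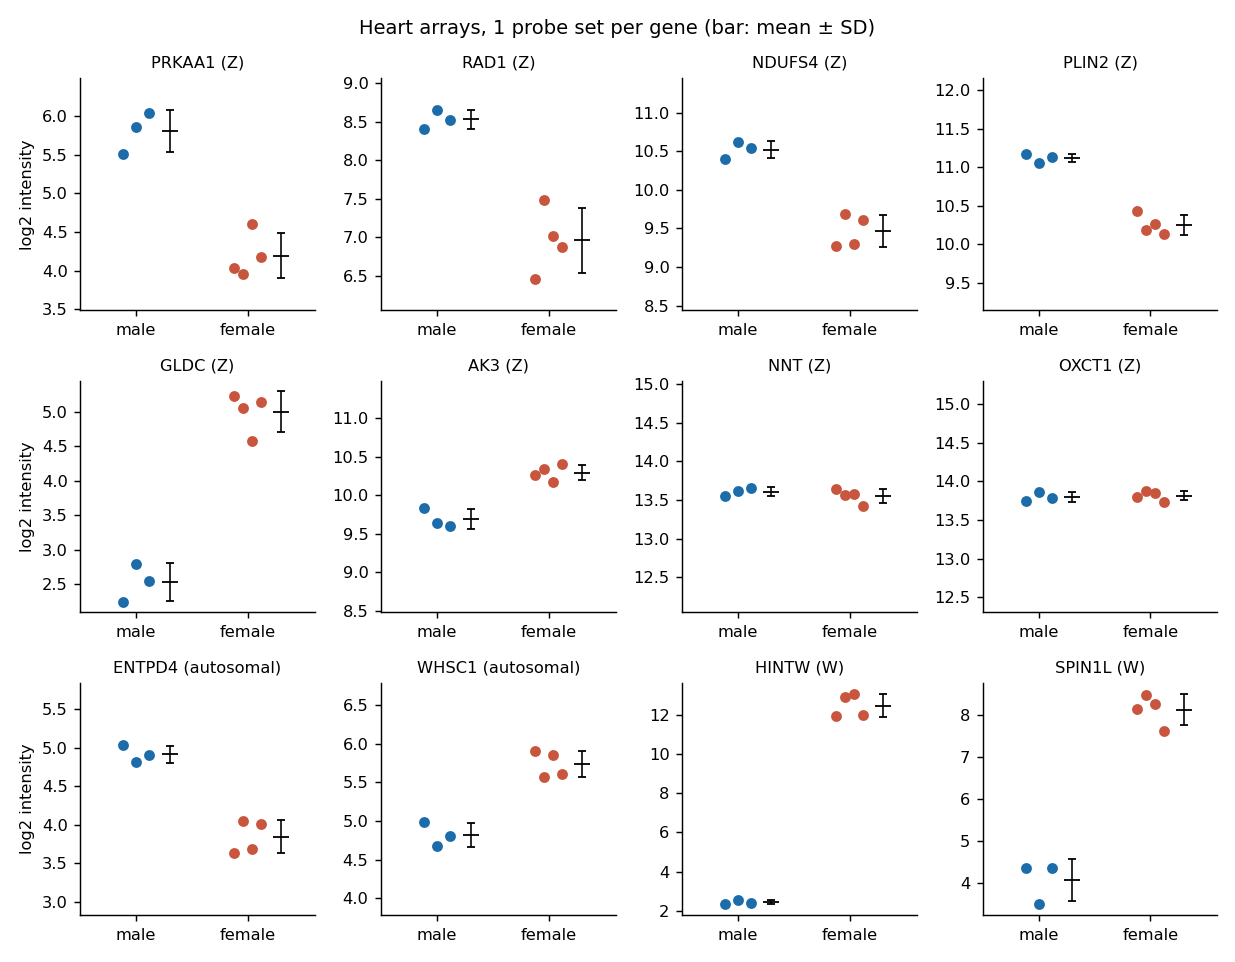
Each panel gives the log2 signal intensity of 1 gene on the 3 male and 4 female heart arrays, with points for arrays and a bar for the mean ± SD of each sex. PRKAA1, RAD1, NDUFS4, PLIN2 and ENTPD4 lie higher in males, GLDC, AK3, WHSC1, HINTW and SPIN1L higher in females, and NNT and OXCT1 overlap.

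The male excess was present at all expression levels. When Z-linked genes were divided into 4 groups of similar size by their level in heart, the medians were 0.54, 0.66, 0.64 and 0.48 in ascending order of level. Calls were fewer among weakly expressed genes, with 15, 36, 35 and 36 male-biased genes in the same order, and the median SE was 0.26, 0.21, 0.17 and 0.14. Of 118 Z-linked genes read by several probe sets, 100 had all of their probe sets above 0, 13 had probe sets on both sides of 0 and 5 had all below. For 20 of these genes all probe sets were male-biased, for 34 some were and for 64 none were.

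Along the Z chromosome the male excess was widespread, with medians of 0.40 to 0.87 over 10 consecutive groups of measured genes. Fine structure appeared around DMRT1, the Z-linked testis-determining gene of birds, which is on the array but had no heart value. Of the 60 genes that precede DMRT1 in the gene order, 23 were measured, and their median was 0.75, a fold-change of 1.68, with 9 male-biased and none female-biased. Of the 60 genes that follow it, 16 were measured, and their median was -0.11, with none male-biased and 2 female-biased. In this stretch only PUM3, an RNA-binding protein of the nucleolus, had all male arrays above the female ones, at 9.16, 9.06 and 9.20 in males against 8.57, 8.65, 8.49 and 8.91 in females (difference 0.48, adjusted p = 0.135).

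VLDLR, the receptor for very low density lipoprotein, lies in the same stretch and had 10.83, 10.87 and 11.04 in males, against 11.41, 11.29, 11.51 and 11.22 in females. Its arrays did not overlap, with females above, but the difference of -0.44 was not called (adjusted p = 0.195). The same 2 stretches gave similar medians in brain, 0.74 over 21 genes before DMRT1 and 0.01 over 16 genes after it, from arrays of the same embryos. The running median over 15 genes had its lowest value, -0.14, between VLDLR and PTPRD, 11 to 56 genes after DMRT1, and its highest, 0.97, between FBN2 and CCNH, where 9 of the 15 genes were male-biased. The difference between these stretches is a description, since the stretches were chosen with the values known.

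**Figure D3:**
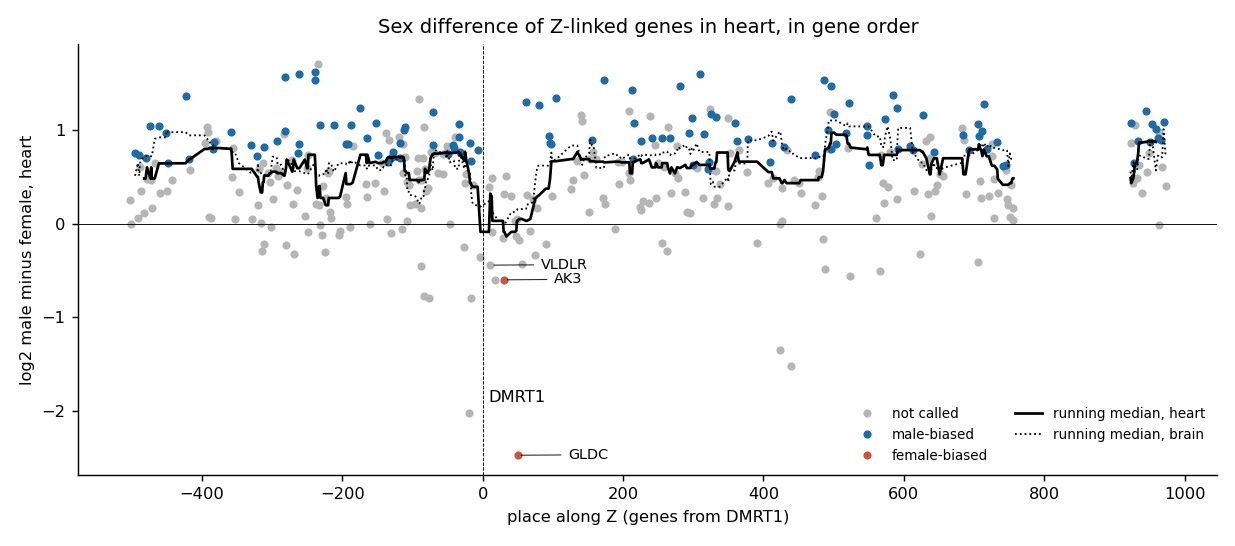
Points give the log2 difference, male minus female, of Z-linked genes in heart against their distance in genes from DMRT1, and lines give the running median over 15 genes, solid for heart and dotted for brain. The heart line lies above 0 along most of the chromosome and dips to -0.14 just after DMRT1.

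For some Z-linked genes of high level in heart, the probe set of highest level lay within 1.2-fold. OXCT1, which activates ketone bodies for use as fuel, had 13.74, 13.87 and 13.78 in males, against 13.80, 13.87, 13.85 and 13.73 in females, a difference of -0.02 (SE 0.11, adjusted p = 0.991). These ranges overlapped, but OXCT1 had 3 weaker probe sets with differences of -0.02, 0.49 and 0.76, none of them called. NNT, the mitochondrial transhydrogenase that makes NADPH, had 13.55, 13.62 and 13.66 in males and 13.64, 13.56, 13.57 and 13.42 in females, a difference of 0.06 (SE 0.11, adjusted p = 0.939). In brain the differences were 0.51 for OXCT1 and 0.53 for NNT, but the test of heart against brain did not pass for either (adjusted p = 0.526 for OXCT1 and 0.605 for NNT). The cytokine receptor gene LIFR had a heart difference of 0.08, LMAN1L one of 0.11 and ACO1, the cytosolic aconitase that doubles as an iron sensor, one of 0.06. The ribosomal protein genes RPL37 and RPS23 belonged to this group by fold-change, at 0.21 and 0.22, although their male arrays all lay above their female arrays.

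GLDC was female-biased in heart, where males were not told apart from background. It encodes the glycine decarboxylase that starts mitochondrial glycine cleavage. GLDC had values of 2.24, 2.79 and 2.55 in males, against 5.23, 5.05, 4.57 and 5.15 in females. All male arrays lay under 4.0, a level that the higher of the sex means exceeded in every probe set with heart values. Taken against that level the female mean was at least 2.0-fold higher, and the measured difference was -2.47 (SE 0.18, adjusted p = 9.13e-08). In brain of the same embryos GLDC was at 8.89, 9.18 and 8.82 in males and 8.87, 8.56, 8.89 and 8.70 in females, a difference of 0.21 (adjusted p = 0.771). The sex difference in heart minus that in brain was -2.68 as measured (adjusted p = 3.28e-05), a value and a test that rest on male heart signals under 4.0; with those set to 4.0 the difference would be -1.21, which was not tested. SLC1A1 and ZNF366, also Z-linked, had male means of 3.62 and 2.95 and female means of 4.23 and 4.97, without a call (adjusted p = 0.754 for SLC1A1 and 0.451 for ZNF366).

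AK3, the mitochondrial adenylate kinase isoform that uses GTP, was also female-biased. It had 9.84, 9.64 and 9.60 in males, against 10.26, 10.34, 10.17 and 10.40 in females, a difference of -0.60 (SE 0.14, adjusted p = 0.0259). The arrays did not overlap, but the fold-change of 1.52 was just past the threshold, and the call was lost without female 2, 10 or 20 or male 19 or 21, and when the heart arrays were fitted alone (adjusted p up to 0.123). GLDC and AK3 both lie in the stretch after DMRT1. One of 3 probe sets of ZFR2 was female-biased too, at 5.14, 5.80 and 5.66 in males against 6.32, 6.99, 7.38 and 6.96 in females. It shares the stem of its probe set name with a probe set placed on W, and whether it reads W-linked RNA was not tested.

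Across Z, the sex difference in heart resembled that in brain. Over 489 Z-linked probe sets with values in both tissues, the median was 0.56 in heart and 0.65 in brain. Male bias was called for 154 in heart and 164 in brain, and 118 were called in both, which is 76.6% of the heart calls and 72.0% of the brain calls. The difference between tissues passed the test for 7 of 13001 probe sets (0.0538%), of which GLDC, with the limit given above, was the sole Z-linked one; 65 Z-linked probe sets had an unadjusted p under 0.05. No autosomal probe set passed that test in limma, and 747 of 10221 had an unadjusted p under 0.05. Of these 10221, 14 were male-biased in heart, and 1 of them also in brain. It was 1 of 2 PSMD5 probe sets, at 0.68 in heart (limma adjusted p = 0.000972) and 0.91 in brain (5.0e-05). Female bias was called for 14 in heart, and for 1 of them also in brain. It was 1 of 4 UBAC1 probe sets, at -1.01 in heart (0.0206) and -1.20 in brain (0.00587). Neither heart call remained under every alternative fit. Heart and brain arrays came from the same embryos and are not independent of each other.

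**Figure D4:**
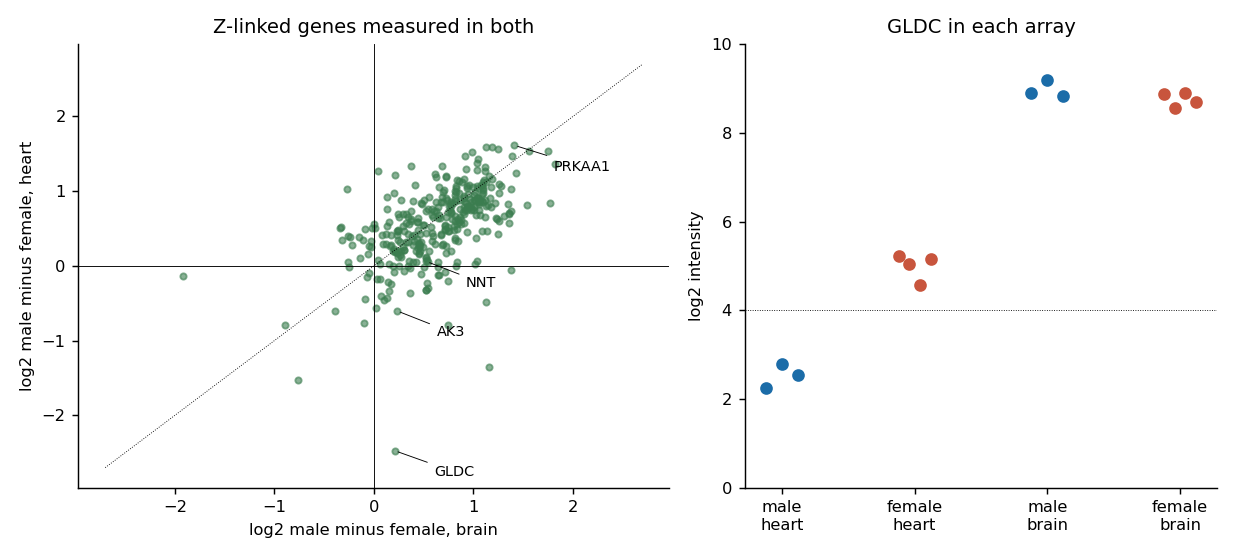
Left, each point is a Z-linked gene with its log2 difference, male minus female, in heart on 1 axis and in brain on the other; right, points give GLDC on each male and female array in heart and brain. Most genes lie above 0 in both tissues, and GLDC is apart from them, with males at 2.24 to 2.79 and females at 4.57 to 5.23 in heart.

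The W-linked genes were the most different of all. HINTW, the W-linked member of the HINT family of nucleotide hydrolases, had 2.39, 2.57 and 2.39 in males, against 11.92, 12.88, 13.05 and 11.97 in females. Male values were at the bottom of the scale and female values near the top of it, and the female mean was at least 351-fold above the background level (difference -10.01, SE 0.40, adjusted p = 5.01e-12). UBE2R2L, a W-linked ubiquitin-conjugating enzyme gene, had 2.76, 2.43 and 2.59 in males and 9.12, 9.22, 8.84 and 9.14 in females, at least 33.8-fold higher in females (adjusted p = 3.05e-15). SPIN1L, a relative of the chromatin reader spindlin, had 4.35, 3.48 and 4.34 in males and 8.15, 8.49, 8.26 and 7.61 in females (difference -4.07, adjusted p = 2.11e-07). HNRNPKL, a relative of an RNA-binding hnRNP protein, had 5.12, 5.09 and 5.02 in males, which carry no W, against 9.91, 10.07, 9.31 and 9.66 in females, and whether the male signal comes from the Z-linked HNRNPK was not tested.

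The list of W-linked genes drawn up by name had 6 measured members, all female-biased, with a median of -4.36 both as measured and with male means under 4.0 set to that level. In all, 17 probe sets of 11 W-linked genes were female-biased, and each kept its call under every alternative that gave it a value. Males carry no W, so calls of W-linked RNA, their p-values and their stability follow from the design and are no independent support. The smallest difference among the W-linked genes called, with 1 probe set taken for each, was that of UBAP2L2 at -2.30. The male mean was under 4.0 for 14 of the 17 probe sets, which thus had heart values only through the female arrays. Their measured differences are not exact, and UBAP2L2 was at least 2.31-fold higher in females. MBD2 and NEDD4L are placed on W by the gene table but behaved otherwise. MBD2, a reader of methylated DNA, had 10.51, 10.62 and 10.31 in males, against 10.47, 10.17, 10.34 and 10.32 in females (difference 0.15, adjusted p = 0.836). NEDD4L, a ubiquitin ligase, had 9.92, 10.10 and 9.92 in males and 9.45, 9.66, 9.45 and 9.58 in females, and 2 of its 5 probe sets were male-biased. Neither of these 2 calls remained under every alternative fit. What the probe sets of both genes read in males, which carry no W, and whether the placement holds were not tested.

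Several Z-linked genes with a W partner were male-biased. The list of Z-linked partners held 22 measured genes, 19 of them placed on Z, of which 8 were male-biased, against 31.5% of all Z-linked genes, with a Z-linked median of 0.60 against 0.59 over all Z-linked genes. HNRNPK had 11.46, 11.62 and 11.24 in males, against 10.74, 10.83, 10.79 and 10.66 in females (difference 0.68, adjusted p = 0.000351). SPIN1 had 10.73, 11.55 and 11.25 in males and 10.0002, 10.53, 10.28 and 10.25 in females (difference 0.91, adjusted p = 0.00586). In both genes the arrays did not overlap. UBE2R2 at 0.68, the chromatin remodeller gene CHD1 at 0.88, the Ras regulator RASA1 at 0.95, the elongation factor gene GFM2 at 0.81, BTF3 at 0.77 and TXNL1 at 0.75 were male-biased as well. The SPIN1 call was lost without male 19 (adjusted p = 0.0582), the CHD1 call without female 2 or 20 or male 19 or 21 (up to 0.0754) and the RASA1 call without female 2, 12 or 20 or male 19 or 21 (up to 0.237), and all 3 were lost with the heart arrays alone. The other CHD1 probe set had a difference of 0.10 and was not called. UBAP2, the partner of UBAP2L2, had 8.97, 8.79 and 9.05 in males and 8.58, 8.12, 8.53 and 8.26 in females and missed the threshold (difference 0.57, adjusted p = 0.0515).

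On the autosomes few genes differed, and few of those calls held under every alternative that gave a value. The 15 male-biased probe sets, 0.125% of those on autosomes, had differences of 0.59 to 1.68, and the 19 female-biased ones, 0.158%, had differences of 0.76 to 3.93 in size, 8 of them with a male mean under 4.0. ENTPD4, a nucleotide-hydrolysing enzyme of internal membranes, had 5.03, 4.81 and 4.90 in males, against 3.64, 4.05, 3.69 and 4.01 in females. The ranges did not overlap, the female mean lay under 4.0, and the male mean was at least 1.89-fold higher (difference 1.07, SE 0.17, adjusted p = 0.00148). WHSC1, a histone methyltransferase that marks histone H3, had 4.99, 4.67 and 4.81 in males, against 5.90, 5.58, 5.86 and 5.61 in females (difference -0.92, SE 0.13, adjusted p = 0.000522). These were the only autosomal calls in each direction that remained under every alternative fit that gave a value. Both genes were left out of the fit that required a level of at least 6 in the higher sex. In brain ENTPD4 differed by 0.37 and WHSC1 by 0.09. The test of heart against brain gave adjusted p = 0.605 for ENTPD4 and 0.0832 for WHSC1.

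Not all of the 15 male-biased autosomal probe sets are listed here. The genes that follow were called in their probe set of highest level, with arrays that did not overlap. Higher in males were TMEM241 at 1.17, PLXDC2 at 0.96, SRBD1 at 0.92, THAP6 at 0.76 and the scavenger receptor gene COLEC12 at 0.72. So were the palmitoyltransferase gene ZDHHC14 at 0.59 and KIF7, a kinesin of the Hedgehog pathway, at 0.59. TMEM241 had 5.66, 5.84 and 5.94 in males, against 4.71, 4.72, 4.41 and 4.72 in females. KIF7 had 6.51, 6.55 and 6.53 in males and 6.05, 5.99, 5.67 and 6.05 in females. In both genes female 12 was apart from the other females, and the call was lost without that array. The TMEM241 call was also lost without female 2 or male 19 or 21 (adjusted p up to 0.0987), and the KIF7 call without male 19 or 21 (up to 0.0762). COLEC12 lost its call with the embryo as a block (adjusted p = 0.0533). Apart from ENTPD4 and WHSC1, each autosomal gene named by the rule lost its call without at least 1 array, with a highest adjusted p of 0.0772 for YOD1 to 0.329 for CPNE3 over the alternatives.

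Genes higher in females, chosen in the same way, included FRRS1 at -1.5, CPNE3, a calcium-dependent membrane-binding protein, at -1.35, and SPG20 at -1.05. Among them were also GLCCI1 at -0.94, the deubiquitinase gene YOD1 at -0.78 and TIGAR, which restrains glycolysis, at -0.76. CPNE3 had 6.70, 5.01 and 6.31 in males, against 7.48, 7.51, 7.67 and 6.76 in females, so male 19 lay far below the other males. The phospholipase gene PLCB4 had a male mean of 3.60, under 4.0, and was at least 3.40-fold higher in females. TIGAR had 7.91, 8.09 and 8.07 in males and 8.68, 8.94, 8.85 and 8.67 in females, and no array of one sex reached the other. CRYZ, a quinone reductase, was outside the rule for named genes and was picked after its values were seen. In 1 of its 3 probe sets, at least 5.82-fold higher in females, males had 2.59, 2.63 and 2.60, against 7.62, 6.56, 7.84 and 4.14 in females, while the other 2 probe sets had differences of -0.33 and -0.58 and were not called.

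The arrays behind these autosomal calls were uneven. Male 19 was the lowest of the 7 arrays for 13 of the 19 female-biased probe sets, and female 12 the highest for 12. In 18 of these 19 probe sets the arrays did not overlap, so only a male could be lowest and only a female highest. The shares over all autosomal probe sets, 12.7% lowest for male 19 and 14.3% highest for female 12, are thus no baseline for these counts. Whether the counts exceed chance was not tested. The count of female-biased autosomal probe sets was 9 without male 19, 6 without female 12 and 11 without female 2. The count of male-biased ones was 8 without male 19, 9 without female 2, 23 without male 16 and 35 without female 10. Of the genes called, 10 of 15 male-biased and 15 of 19 female-biased ones were read by further probe sets, and in none was another probe set called. All further probe sets had the opposite sign for 1 of these male-biased genes and 4 of these female-biased ones.

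No gene of the contractile apparatus was called in limma. Of 31 measured sarcomere genes, 29 of them autosomal, none was called. Calls covered only 0.125% of autosomal probe sets in males and 0.158% in females, so a list without a call is not set apart, here and below. The median was -0.02 against 0.03 over all probe sets, and 2 genes in each direction had an unadjusted p under 0.05. Over all genes such a p was found for 490 of 7582 autosomal and 253 of 387 Z-linked ones. MYH15, the ventricular myosin heavy chain, was among the highest signals on the array, at 15.89, 15.90 and 15.90 in males against 15.83, 15.93, 15.89 and 15.94 in females. MYL2, the ventricular regulatory light chain, had 15.42, 15.44 and 15.58 in males and 15.56, 15.51, 15.60 and 15.49 in females. In both genes the sexes overlapped. The Z-linked tropomyosin gene TPM2 was close to the threshold in its probe set of highest level (difference 0.58, adjusted p = 0.0532). That probe set had 11.43, 11.45 and 11.09 in males and 10.89, 10.64, 10.69 and 10.75 in females. Over all 6 TPM2 probe sets the differences ran from -0.0002 to 0.65, and none was called. MYL1, a light chain of fast muscle, had 9.07, 8.52 and 7.56 in males and 9.83, 9.38, 9.98 and 9.88 in females, and its difference of -1.38 was not called (adjusted p = 0.149).

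Among 26 measured genes of calcium handling, 25 of them autosomal, none was called by limma. Over all autosomal genes only 9 of 7582 were male-biased and 8 female-biased. The median of the list was -0.03, and 1 gene in each direction had an unadjusted p under 0.05, as had 490 of the 7582. ATP2A2, the pump that refills the sarcoplasmic reticulum, had 13.86, 13.88 and 14.02 in males, against 13.71, 13.74, 14.06 and 13.95 in females. CAMK4, a calcium-activated kinase encoded on Z, had 9.004, 9.31 and 9.02 in males and 7.41, 8.21, 7.70 and 8.23 in females, without overlap and without a call (difference 1.22, adjusted p = 0.0591). The other CAMK4 probe set had a difference of 0.13 and was not called. The pump inhibitor gene SLN was measured at a low level, with 4.78, 5.72 and 5.38 in males and 3.70, 4.21, 4.49 and 3.70 in females (adjusted p = 0.514).

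Among 27 cardiac transcription factors, cofactors and natriuretic peptide genes limma called none, with a median of 0.05 and 1 in each direction at an unadjusted p under 0.05. NPPA, which encodes atrial natriuretic peptide, had 15.15, 14.97 and 15.10 in males, against 14.91, 15.06, 15.001 and 15.10 in females. MEF2C, a transcription factor of muscle, varied widely within each sex, at 6.23, 4.27 and 5.16 in males and 7.11, 4.44, 6.75 and 4.85 in females. NPR3, the Z-linked clearance receptor for natriuretic peptides, had 9.25, 9.33 and 9.39 in males and 8.42, 9.21, 8.49 and 8.81 in females (difference 0.59, adjusted p = 0.21). Limma also called none of 16 measured ion channel and conduction genes, with none at an unadjusted p under 0.05. It called none of 13 adrenergic, hormone and cytokine receptors, with 2 at an unadjusted p under 0.05, both lower in males. Of all 7582 autosomal genes 9 were male-biased and 8 female-biased, and 490 had an unadjusted p under 0.05.

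In the lists of fat oxidation, lipid handling and the respiratory chain, the genes called were Z-linked. Over all genes 31.5% of the Z-linked ones were male-biased, against 9 of 7582 autosomal ones. Of 21 measured genes of mitochondrial fatty acid oxidation 1 was male-biased, the Z-linked thiolase gene ACAA2, with 13.76, 13.91 and 13.78 in males against 12.97, 13.23, 13.08 and 13.20 in females (difference 0.70, SE 0.11, adjusted p = 0.00118). The list had a median of 0.05, and its 20 autosomal members had a median of 0.04 and no call. Among 18 peroxisomal genes, with a median of 0.10, HSD17B4, the multifunctional enzyme of peroxisomal oxidation, was male-biased, with 11.17, 11.22 and 11.14 in males against 10.04, 10.40, 10.35 and 10.43 in females (difference 0.87, adjusted p = 0.00154). AMACR, a racemase that prepares branched fatty acids, had a difference of 0.55 with an adjusted p of 0.0222 and stayed under the 1.5-fold threshold, while its weaker probe set was male-biased at 0.92. HSD17B4 and AMACR are the 2 Z-linked members of the list, and its 16 autosomal members had no call.

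PLIN2, the coat protein of lipid droplets, was among the most even of the differences. It had 11.16, 11.06 and 11.13 in males, against 10.43, 10.18, 10.27 and 10.14 in females (difference 0.86, SE 0.10, adjusted p = 6.22e-05). The other PLIN2 probe set, at 0.84, was not called. LPL, the lipase that releases fatty acids from circulating lipoproteins, had 10.51, 10.42 and 10.40 in males and 9.96, 9.68, 9.53 and 9.33 in females (difference 0.82, adjusted p = 0.0297). No array overlapped for either gene, but the LPL call was lost in 8 of 13 alternative fits, among them those without male 16, 19 or 21 or female 10, 12 or 20 (adjusted p up to 0.102). These were the 2 calls among 21 measured genes of lipid uptake and sterol handling, a list with a median of 0.09, and both are Z-linked. The list had 6 Z-linked members, so its share of male-biased ones was near the 31.5% of all Z-linked genes. Their median was 0.28, under the 0.59 over all Z-linked genes.

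No enzyme of glucose use or of the citric acid cycle was called. Over all autosomal genes only 9 of 7582 were male-biased and 8 female-biased, so this does not set these lists apart. An unadjusted p under 0.05 was found for 490 of the 7582. Limma called none of 22 glycolytic and gluconeogenic genes, with a median of 0.00 and 1 at an unadjusted p under 0.05, and none of 20 citric acid cycle genes, with a median of 0.05 and none at an unadjusted p under 0.05. GAPDH had 15.09, 14.94 and 14.94 in males, against 15.13, 15.001, 15.13 and 15.09 in females, and ENO1 had 15.17, 15.13 and 15.07 in males and 15.13, 15.10, 15.06 and 15.07 in females. The Z-linked gluconeogenic gene FBP2, of muscle type, had 6.57, 5.63 and 6.56 in males and 5.06, 5.13, 5.09 and 5.15 in females (difference 1.14, adjusted p = 0.0786).

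Of 62 measured genes of the chain and ATP synthase 57 were autosomal, with a median of -0.03, a range of -0.41 to 0.54 and no call. Of the 5 Z-linked members 3 were male-biased, against 31.5% of all Z-linked genes, and all 5 had every male array above every female array, as had 58.1% of all Z-linked genes. Their median was 0.62, close to the 0.59 over all Z-linked genes. NDUFS4, a subunit of complex I, had 10.40, 10.61 and 10.54 in males, against 9.28, 9.69, 9.30 and 9.61 in females (difference 1.05, SE 0.14, adjusted p = 0.000177). COX7C, a subunit of cytochrome c oxidase, had 14.20, 14.40 and 14.36 in males and 13.81, 13.68, 13.73 and 13.57 in females (difference 0.62, adjusted p = 0.0119). The other COX7C probe set had a difference of 1.26 and was not called. The COX7C call was lost without female 20, when the fold-change fell under 1.5, without male 19 (adjusted p = 0.0756) or male 21 (0.0549) and with the heart arrays alone (0.0671). NDUFAF2, an assembly factor of complex I, was male-biased at 0.66 but not without male 19 (adjusted p = 0.0805), whereas the ATP synthase genes ATP5I at 0.48 and ATP5F1AZ at 0.34 were not called.

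Of 29 measured genes of energy sensing, nucleotide and NAD metabolism, 4 were male-biased and 1 female-biased, with a median of 0.06. The male-biased genes were the Z-linked PRKAA1, NMRK1 and AK6 and the autosomal ENTPD4, and the female-biased one was AK3. Of the 7 Z-linked members 3 were thus male-biased, against 31.5% of all Z-linked genes. AK6, an adenylate kinase of the nucleus, had 8.12, 8.13 and 8.06 in males, against 6.67, 6.85, 6.82 and 7.10 in females (difference 1.24, SE 0.14, adjusted p = 3.68e-05). The other AK6 probe set had a difference of 0.51 and was not called. AK6 and AK3, both adenylate kinases on Z, were thus called in opposite directions. CKMT2, the mitochondrial creatine kinase of muscle, also Z-linked, had 10.45, 10.78 and 11.002 in males and 10.23, 9.46, 9.87 and 10.36 in females and was not called (difference 0.77, adjusted p = 0.298).

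**Figure D5:**
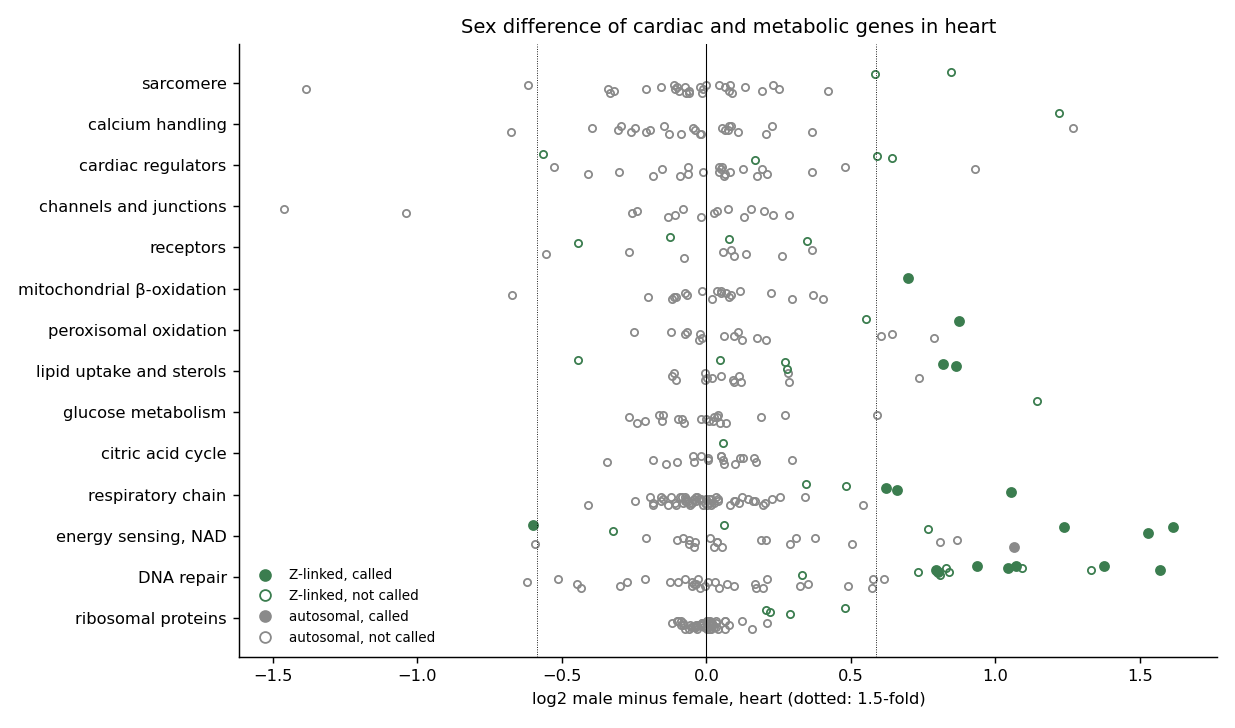
Each row is a gene list and each point a gene, placed by its log2 difference, male minus female, in heart, with Z-linked and autosomal genes in different colours and filled points for called genes. The called genes of the respiratory chain and DNA repair lists are Z-linked, and the Z-linked medians of these lists are 0.62 and 0.89, against 0.59 over all Z-linked genes. The lists were chosen with earlier results of these data known.

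Of 46 measured genes of DNA damage signalling and repair 7 were male-biased and none female-biased, with a median of 0.17. All 7 were among the 14 Z-linked members, which had a median of 0.89 and male arrays above all female arrays in 12 of 14, while the 32 autosomal members had no call and a median of -0.01. Over all Z-linked genes 31.5% were male-biased, the median was 0.59 and male arrays were above all female arrays for 58.1%. The list was chosen with earlier results of these data known, so the values only describe it. From the same arrays, the paper lists DNA repair among terms over-represented in male-biased Z-linked genes of heart. Next to RAD1 and MSH3 the male-biased members were RMI1, a partner of the BLM helicase, at 1.07 (adjusted p = 0.062 with the heart arrays alone), and CCNH, the cyclin of the CDK-activating kinase, at 1.04. The others were the end-processing gene APTX at 0.94, RAD17, which loads the RAD1 clamp, at 0.80, and the excision repair gene XPA at 0.79. CCNH had 10.55, 10.47 and 10.50 in males, against 9.33, 9.66, 9.33 and 9.55 in females. Its kinase partner CDK7, also Z-linked, had 8.16, 8.33 and 8.21 in males and 6.69, 7.42, 6.07 and 7.42 in females and was not called (difference 1.33, adjusted p = 0.0545). The other CCNH probe set had a difference of 0.52 and was not called.

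Ribosomal protein genes showed small and even differences on Z. Limma called none of 54 measured genes, 4 had an unadjusted p under 0.05, and the median was 0.00. Those 4 were the Z-linked ones, and 253 of all 387 Z-linked genes had such a p. RPL17 had 15.11, 15.07 and 15.07 in males, against 14.75, 14.52, 14.57 and 14.58 in females, a difference of 0.48 that passed the adjusted p (0.018) but not the fold-change. RPS6 had a difference of 0.29, RPS23 of 0.22 and RPL37 of 0.21, and in all 4 genes the arrays of the sexes did not overlap.

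Genes of hypoxia and stress and markers of other cell types were compared to show what else moved with sex. Limma called none of 24 hypoxia, stress and immediate early genes, 22 of them autosomal, with a median of 0.11. At an unadjusted p under 0.05, 6 were higher in males and 2 lower. Over all genes such a p was found for 490 of 7582 autosomal and 253 of 387 Z-linked ones. Markers of endothelium (9 of 10 measured) had a mean level of 9.22 to 9.36 in male arrays and 9.20 to 9.28 in female arrays, those of fibroblasts and matrix (14 of 14) 11.57 to 11.91 in males and 11.56 to 11.78 in females, and those of smooth muscle (4 of 8) 7.56 to 8.28 in males and 7.56 to 7.81 in females. Blood markers (8 of 17) ranged over 9.23 to 10.19 in males and 9.56 to 9.92 in females, immune markers (5 of 11) over 7.95 to 8.24 in males and 7.38 to 8.30 in females, and neural markers (5 of 14) over 5.59 to 6.21 in males and 5.34 to 6.08 in females. Limma called none of 2 measured markers of epicardium, 6 of atrium and 3 of ventricle, of which 1 atrial marker had an unadjusted p under 0.05. The sexes overlapped in each list of cells other than cardiomyocytes whose level is given, and the 1 marker called was HEMGN, a Z-linked regulator of red cell formation, with 6.55, 7.5 and 7.90 in males against 5.35, 6.31, 6.26 and 6.24 in females (difference 1.28, adjusted p = 0.0249). The HEMGN call was lost without female 2 (adjusted p = 0.0870), male 19 (0.135) or male 21 (0.161) and with the heart arrays alone (0.279). The part of cell composition in the differences above was not tested.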

How the data were processed

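The authors deposited log2 expression values made from Affymetrix arrays by GCRMA background adjustment, quantile normalization and median polish (the submitters' notes name R 2.4.1 and MAS5). In the deposited table all arrays of a tissue are blank for a probe set that did not pass the authors' filter. In heart the higher of the sex means was never under 4.0, so lower values were read as not told apart from background. The heart labels name a human array, whereas the probe sets are those of the chicken array. Quantile normalization makes the arrays share one distribution, so a difference is relative to all genes of the array. The sexes were separate embryos. The p-values rest on a spread that each probe set shares over the arrays of every tissue with values, moderated across probe sets. That spread is not the one between heart samples alone, and arrays of the same embryo entered it as independent. The number of arrays limits the precision.

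Probe sets were placed by a gene table of the assembly GRCg7b, 16063 by gene number, 132 by symbol and 85 with several genes. Coordinates were used only to put the Z-linked genes in order, by their start positions, and distances along Z are counted in genes. The fit was limma 3.58.1 in R 4.3.3 over 21 arrays in 6 groups of tissue and sex, with moderated tests of male minus female in heart and Benjamini-Hochberg adjustment over all probe sets tested. Bias meant a fold-change over 1.5 with an adjusted p under 0.05. A gene was represented by the probe set of highest level. Genes were named by a fixed rule, which took 96 genes: W-linked genes and their Z partners, the most male-biased, female-biased and unbiased Z-linked genes, the autosomal genes called with arrays that did not overlap, and the called or, with none called, the highest members of each list. Other genes named were chosen after their values were seen, mostly list members near the threshold or Z-linked genes of interest by place. The members and the 28 lists were chosen with earlier results of these data known. Symbols of the lists were matched exactly or by alias.

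Same-numbered arrays are of the same animal. Deviations from the group mean correlated at 0.187 to 0.440 between heart and brain of the same embryo, and the embryo block had a consensus correlation of 0.121. Alternatives were the embryo as a random block, brain and heart or heart arrays alone, array weights, centring on the autosomal median, a stricter level, a fold-change over 2, and leaving out each array. The fit was tested on simulated data. Python 3.11.15, numpy 2.4.6, pandas 2.3.3 and matplotlib 3.10.9 were used for summaries and figures.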

Additional observations from a re-analysis of the deposited data

Results flagged for a closer look

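Among the 96 genes named, 6 had a female array whose gap to the nearest other female exceeded Dixon's 95% critical value, and chance alone gives such a gap in about 1 group in 20. Female 12 was apart for TMEM241 at 4.41, for KIF7 at 5.67 and for CHD1 at 6.03. Female 2 was apart for RPS23 at 14.77, for ALDH1A2 at 10.53 and for HEMGN at 5.35. The groups of 3 males were too small for this comparison.

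The sex difference differed between heart and brain, by a test of that difference itself, for 7 probe sets. For GLDC the heart difference minus the brain difference was -2.68 as measured (adjusted p = 3.28e-05), and -1.21 with male heart values under 4.0 set to that level, which was not tested. For the W-linked LOC107049459 it was 2.36 (adjusted p = 2.64e-08). Its males were near background in both tissues, with heart values of 2.74, 2.89 and 2.87, against 8.36, 8.35, 8.17 and 8.50 in female hearts. In brain the males had 2.82, 2.82 and 2.81 and the females 10.76, 10.64, 10.73 and 10.59. The difference between tissues thus lay in the female values. The other 5 probe sets had no place in the gene table, with differences between tissues of -1.17 (adjusted p = 0.00806), 1.32 and 1.77 (both 0.00187), 3.37 (2.64e-08) and 3.72 (0.000121). The last pair share the stem of their probe set names with that of LOC107049459. In these 5 probe sets too, all male values were under 4.0 in both tissues.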

How the results depend on the processing

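The direction of the Z-linked and autosomal medians held under each alternative that gave a value. The fits of heart arrays alone and of brain and heart arrays could not change these medians, since they leave each heart difference as it was. The side of the threshold of the female-biased W-linked calls also held under each alternative that gave a value, which follows from the absence of a W in males. Some calls of the joint fit remained under every alternative fit that gave them a value. These were 63 of 163 higher in males on Z, 17 of 17 higher in females on W and 1 of 3 higher in females on Z. On autosomes they were 1 of 15 higher in males and 1 of 19 higher in females. The level of at least 6 in the higher sex gave no value for GLDC, ENTPD4 or WHSC1, and kept 14 of the 17 calls on W. With heart arrays alone the counts were 79 in males on Z, 1 in females on Z, and 4 in males and 5 in females on autosomes. With brain and heart arrays the autosomal counts were 9 in males and 11 in females. A level of at least 6 in the higher sex left 10 autosomal calls in females, and a fold-change over 2 left 62 calls on Z and 4 on autosomes in males. With 1 probe set per gene, 11 W-linked genes were called in females, and on autosomes 9 genes in males and 8 in females.

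Leaving out 1 array at a time gave 105 to 155 calls in males on Z, 8 to 35 in males on autosomes and 6 to 25 in females on autosomes. With the embryo as a replicate block the counts were 164 in males on Z, 14 in males and 19 in females on autosomes, 17 in females on W and 3 in females on Z, with 8 probe sets that differed between heart and brain. The block ended the call of COLEC12 among the genes named. Some log2 differences, none of them called, changed sign when 1 array was left out, with lowest and highest values of ACO1 at -0.018 to 0.11, OXCT1 at -0.053 to 0.011, LIFR at -0.0048 to 0.14, MYH15 at -0.026 to 0.013, FHL2 at -0.13 to 0.045, EDNRB at -0.023 to 0.29, MDH2 at -0.0099 to 0.11, HSPA8 at -0.055 to 0.067, RPS3A at -0.071 to 0.0053, ACTC1 at -0.090 to 0.031, MYBPC3 at -0.073 to 0.028, CDH5 at -0.085 to 0.066, DCN at -0.035 to 0.13, LY86 at -0.029 to 0.35, SNAP25 at -0.77 to 0.035 and GJA5 at -0.11 to 0.24. CDH5 was -0.019 with array weights and -0.0091 after centring, and GJA5 was -0.054 with array weights. The cause of these changes was not tested. Weak genes limit the calls, since the SE is larger at low signal.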

Other observations

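Further Z-linked genes outside the lists above were picked after their values were seen, so they stand for no group and no test of one was made. Among subunits of the mitochondrial ribosome, MRPS30 at 1.05, MRPL17 at 0.82 and MRPS27 at 0.67 on the log2 scale were male-biased. MRPL50 was male-biased at 0.78 in 1 of 2 probe sets, and MRPS36 at 0.47 stayed under the fold-change threshold (adjusted p = 0.0198). MRPS27 had 11.87, 11.83 and 11.86 in males, against 11.08, 11.24, 11.05 and 11.38 in females. The males were nearly identical and the females varied more. NSA2, a factor of ribosome assembly, was male-biased at 0.84, with 13.16, 13.12 and 13.30 in males against 12.26, 12.35, 12.24 and 12.55 in females.

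CLTA, a light chain of clathrin, was male-biased at 0.91, the sorting nexin gene SNX2 at 0.87 and TBCA, a chaperone of tubulin, at 1.19. Of related Z-linked genes, SNX30 at 0.63 (adjusted p = 0.210) and SCAMP1 at 0.76 (adjusted p = 0.0959) were not called. The autophagy gene ATG10 was male-biased at 1.12, and EPG5, also of autophagy, at 0.64 in 1 of its 2 probe sets.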
